A study of Mus musculus with 12 samples.

Results

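Cxcl1, Cxcl2 and Cxcl5, chemokines that draw neutrophils into inflamed tissue, were followed in mouse peritoneal macrophages with and without MyD88 and with and without apoA-I. The probes were chosen by the gene name printed in the scanner files, which gave 1 probe for each of the 3 genes. The array named 27666 genes in all. All 3 chemokine probes were among the 16732 genes that passed the filter on dim probes and were tested.

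RNA was measured on 12 one-colour arrays, 3 in each of 4 groups: MyD88-null with apoA-I, MyD88-null control, C57BL/6 with apoA-I and C57BL/6 control. Donors were female mice 10 weeks old, MyD88-/- for the first pair of groups and C57BL/6 with MyD88 intact for the second. In every group the macrophages were drawn into the abdominal cavity with thioglycollate, an irritant, and collected 96 h later. They were loaded overnight with cholesterol at 10 µg/ml and then kept in medium with 25 µg/ml polymyxin B, which captures bacterial lipopolysaccharide. Treated cells received 10 µg/ml apoA-I, the chief protein of high-density lipoprotein particles, for 2 h, and controls went without it for the same time. From each sample 500 ng of RNA was labelled with Cy3. The series title asks what apoA-I induces and how far this depends on MyD88.

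Chemokines of this family carry a Glu-Leu-Arg motif before their CXC cysteines and act on Cxcr2, the receptor that guides neutrophils along a gradient. Macrophages are a known source of Cxcl1 and Cxcl2, whose genes are transcribed within the hour when NF-kappaB enters the nucleus and whose messenger RNAs are short-lived. MyD88 is the adaptor that links the interleukin-1 receptor and most Toll-like receptors to NF-kappaB, while some Toll-like receptors can also signal through another adaptor, Trif.

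The RefSeq promoters of Cxcl1 and Cxcl2 are shown because the genes moved together on these arrays and lie beside each other on chromosome 5. Each sequence is the 250 bases before the annotated start, on the plus strand of build GRCm38.p6, at chr5:90890995-90891244 for Cxcl1 and chr5:90903649-90903898 for Cxcl2. Capitals mark GGGAATTTCC, a decamer that matches the kappaB consensus of NF-kappaB, and CATAAAAG, an octamer of the TATA type.
Cxcl1: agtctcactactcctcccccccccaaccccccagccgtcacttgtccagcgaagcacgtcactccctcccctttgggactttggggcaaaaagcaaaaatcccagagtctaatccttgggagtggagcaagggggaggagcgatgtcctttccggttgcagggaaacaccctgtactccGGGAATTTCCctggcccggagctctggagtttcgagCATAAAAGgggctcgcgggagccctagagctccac
Cxcl2: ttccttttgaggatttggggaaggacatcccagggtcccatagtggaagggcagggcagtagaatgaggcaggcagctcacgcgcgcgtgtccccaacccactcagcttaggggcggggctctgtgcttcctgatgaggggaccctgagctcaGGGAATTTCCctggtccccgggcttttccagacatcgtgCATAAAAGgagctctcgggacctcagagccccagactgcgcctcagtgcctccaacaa
The decamer lay at bases 71 to 62 before the start of Cxcl1, 97 to 88 before that of Cxcl2 and 73 to 64 before that of Cxcl3, another chemokine of the same cluster. Searched on both strands, it was found in 28 of 32851 RefSeq promoters of this length, or 0.0852%, while the wider kappaB consensus was in 7.25%. The longest run of bases that the Cxcl1 and Cxcl2 promoters shared was the 14 bases GGGAATTTCCCTGG, which begin with the decamer. Both motifs were chosen after the sequences were seen. The octamer lay at bases 35 to 28 before the start of Cxcl1 and 58 to 51 before that of Cxcl2, was not in the window of Cxcl3 and was in 0.889% of the promoters. The AP-1 heptamer TGANTCA was not in these windows of Cxcl1, Cxcl2 or Cxcl3 and was in 6.75% of all windows. A match of letters is a description of the sequence and was not tied here to binding of a factor.

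Levels below are log2 of a probe's processed signal over the 75th percentile of its array, so 0 is that percentile and 1 unit is a doubling. They compare arrays for the same probe, and no probe's level is set against another's, except that marker sums add the signals of several probes. Probe coordinates are those of the array files, in build mm7: chromosome 5, 90882059 to 90882118 for Cxcl1, 90894748 to 90894807 for Cxcl2 and 90732453 to 90732512 for Cxcl5. Which exon each probe lies in was not looked up in that build. No spot of the 3 probes was saturated or marked as an outlier on any array.

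The 75th percentile of the processed signal ran from 209.824 to 1489.37, and an array had 57.5485% to 73.5901% of its 41174 probes well above background. Arrays of a group correlated at r = 0.915 to 0.979 over the genes tested. The probe for Myd88 stood at 2.68, 3.16 and 2.32 in apoA-I-treated MyD88-null cells and 1.83, 2.03 and 1.34 in MyD88-null controls, against 4.1, 4.19 and 3.29 in C57BL/6 cells with apoA-I and 3.42, 3.4 and 2.88 in C57BL/6 controls. MyD88-null cells differed from C57BL/6 cells by -1.14 with apoA-I (SE 0.325, limma adjusted p = 0.942) and by -1.5 in controls (SE 0.325, adjusted p = 0.247), neither of which passed, and a probe outside the deleted part would check nothing. The free-text descriptions go against the titles of 2 samples: that of C57BL/6 control replicate 2 includes the apoA-I step, and that of MyD88-null apoA-I replicate 2 leaves it out. Titles and source names were followed, and results are also given without both samples where that changes a call. With treatments taken from the descriptions instead, limma called 0 genes in either response, 742 in MyD88-null and 284 in C57BL/6 cells having an unadjusted p under 0.05. The change was then 4.25 and 3.4 for Cxcl1 and 5.75 and 3.57 for Cxcl2, in MyD88-null and C57BL/6 cells in that order, with adjusted p of 0.889 and 1 for each gene. The labels do not say whether replicates came from separate animals or pools, so the p-values rest on a spread between samples that may be technical only.

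All 8 macrophage markers were tested and none passed in any comparison, with or without the replicate block. Their summed signal, in units of the 75th percentile, ran from 640 to 1200 in MyD88-null cells with apoA-I, 590 to 713 in MyD88-null controls, 639 to 817 in C57BL/6 cells with apoA-I and 524 to 785 in C57BL/6 controls. Such a sum is weighted to the brightest probes, here Lyz2 and Cd68, and says little of the dimmer markers. Of 11 neutrophil markers 6 were tested and none passed. Their sum ran from 3.04 to 3.49 in MyD88-null cells with apoA-I and 3.05 to 3.76 in MyD88-null controls, against 2.66 to 3.11 in C57BL/6 cells with apoA-I and 2.76 to 3.58 in C57BL/6 controls. Ly6g, a defining neutrophil gene, had no probe under that name, and Elane, Ngp, Camp and Retnlg did not pass the filter. The summed signal of 4 B cell markers lay lower in MyD88-null cells, at 3.82 to 6.94 with apoA-I and 4.21 to 4.96 in controls, against 7.18 to 7.87 and 7.09 to 8.44 in C57BL/6 cells. That of 5 mast cell markers was 1.29 to 1.62 with apoA-I and 1.16 to 1.62 in controls of MyD88-null cells, against 1.83 to 2.35 and 1.68 to 2.3 in C57BL/6 cells. No single gene of either list passed, and the part of these cells in the genotype differences below was not tested. In such bulk RNA, fewer cells of a type and less RNA per cell cannot be told apart.

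Cxcl1 and Cxcl2 rose with apoA-I in cells of both genotypes, and Cxcl1 fell without MyD88 in control cells. For all 3 genes the MyD88-null arrays lay below the C57BL/6 arrays of the same treatment. For Cxcl5 the arrays with and without apoA-I overlapped in both genotypes. The plot of levels by array shows the 12 values of each gene.

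**Figure D1:**
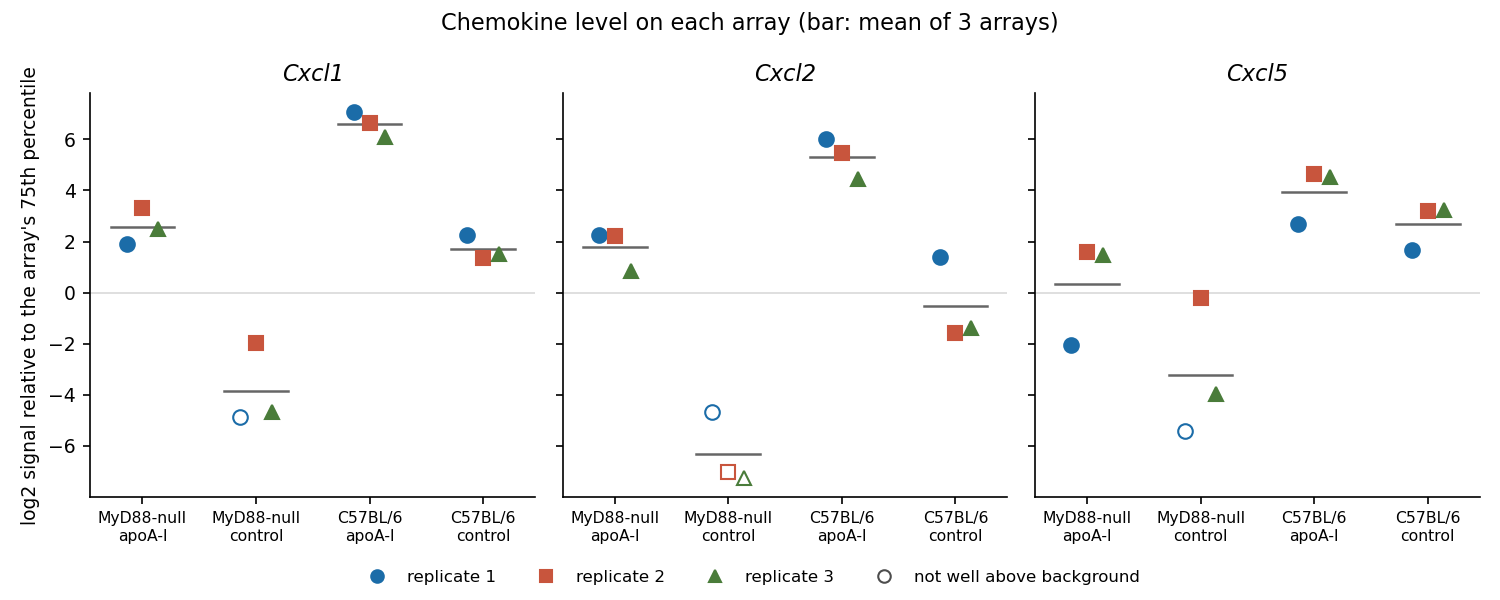
Level of Cxcl1, Cxcl2 and Cxcl5 on each array, as log2 of the signal over the array's 75th percentile (vertical axis), in the 4 groups (horizontal axis); bars are means of 3 arrays and open symbols are spots not well above background. For Cxcl1 and Cxcl2 the apoA-I arrays lie above the control arrays of the same genotype, while for Cxcl5 they overlap within each genotype and the MyD88-null arrays lie below the C57BL/6 arrays of the same treatment.

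Cxcl1, known in mice as KC, stood at 1.89, 3.31 and 2.49 in apoA-I-treated MyD88-null cells and at -4.88, -1.97 and -4.67 in MyD88-null controls, replicates 1 to 3 in each list. In C57BL/6 cells it stood at 7.08, 6.64 and 6.1 with apoA-I and at 2.25, 1.34 and 1.53 in controls. The highest arrays were those of C57BL/6 cells with apoA-I and the lowest those of MyD88-null controls, where replicate 1 was not well above background. The arrays of MyD88-null cells with apoA-I and of C57BL/6 controls overlapped, and every other pair of groups was apart. Group means were 2.56 ± 0.71 in MyD88-null cells with apoA-I, -3.84 ± 1.62 in MyD88-null controls, 6.61 ± 0.49 in C57BL/6 cells with apoA-I and 1.71 ± 0.476 in C57BL/6 controls (SD, n = 3 each).

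Cxcl2, the mouse MIP-2 chemokine, stood at 2.26, 2.21 and 0.84 in apoA-I-treated MyD88-null cells and at -4.69, -7.02 and -7.28 in MyD88-null controls. None of the 3 MyD88-null control arrays had it well above background, so the level there is a bound. In C57BL/6 cells it stood at 6, 5.47 and 4.45 with apoA-I and at 1.41, -1.58 and -1.38 in controls. The order of the groups was that of Cxcl1, again with an overlap between MyD88-null cells with apoA-I and C57BL/6 controls only. The means were 1.77 ± 0.808 in MyD88-null cells with apoA-I, -6.33 ± 1.43 in MyD88-null controls, 5.31 ± 0.787 in C57BL/6 cells with apoA-I and -0.52 ± 1.67 in C57BL/6 controls (SD, n = 3 each).

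Cxcl5, known in mice as LIX and made by epithelial and stromal cells in several tissues, stood at -2.04, 1.57 and 1.46 in apoA-I-treated MyD88-null cells and at -5.42, -0.22 and -3.99 in MyD88-null controls, replicate 1 of the controls being below background. In C57BL/6 cells it stood at 2.7, 4.64 and 4.51 with apoA-I and at 1.65, 3.21 and 3.25 in controls. Within each genotype the treated and control arrays overlapped, and each MyD88-null group lay below each C57BL/6 group. Replicate 1 was the lowest in all 4 groups. The means were 0.33 ± 2.05 in MyD88-null cells with apoA-I, -3.21 ± 2.69 in MyD88-null controls, 3.95 ± 1.09 in C57BL/6 cells with apoA-I and 2.7 ± 0.914 in C57BL/6 controls (SD, n = 3 each).

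The 3 genes varied more between arrays of a group than most. The within-group SD was 0.948 for Cxcl1, 1.24 for Cxcl2 and 1.83 for Cxcl5, against a median of 0.464 over all genes tested. It was larger than that of 82.5% of genes for Cxcl1, 91.3% for Cxcl2 and 98.4% for Cxcl5.

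In MyD88-null cells apoA-I raised Cxcl1 and Cxcl2, and the test of Cxcl5 did not pass. Cxcl1 was higher by 6.41 log2 units (SE 0.703, 95% interval 4.84 to 7.97), or 84.8-fold as measured with 1 of 3 control arrays below background, with an adjusted p of 0.000989. Cxcl2 was higher by 8.1 log2 units as measured (SE 0.908, interval 6.08 to 10.12, adjusted p = 0.00107). With its controls below background, the change of Cxcl2 is a bound of at least 108-fold. It sets each control array at the higher of its own value and the lowest signal among probes above background. Here and below, such a bound is a point value at that floor and not a strict limit. It does not cover the spread between arrays or the choice of background correction, and the interval above and the normexp values below reach smaller changes. Cxcl5 was higher by 3.54 log2 units (SE 1.34, interval 0.56 to 6.52, adjusted p = 0.448). Among all genes tested, 181 rose, or 1.08%, and 5.79% had treated arrays that all lay above the controls, as Cxcl1 and Cxcl2 did and Cxcl5 did not. By size of increase Cxcl2 was 2 of 16732, Cxcl1 was 8 and Cxcl5 was 58.

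Within each replicate number the MyD88-null difference was 6.77, 5.28 and 7.17 for Cxcl1, 6.96, 9.23 and 8.12 for Cxcl2, and 3.38, 1.79 and 5.45 for Cxcl5. All 9 of these differences were positive. With the replicate number as a block the test of Cxcl5 passed (adjusted p = 0.042), and 653 genes were called in place of 185. Arrays of a number need not share a slide: slide 3 held MyD88-null apoA-I replicate 1 and MyD88-null control replicate 2, and slide 5 held both arrays of replicate 3. On slide 3 the difference was 3.87 for Cxcl1, 9.29 for Cxcl2 and -1.82 for Cxcl5, against 7.17, 8.12 and 5.45 on slide 5. Among arrays scanned on day 1 it was 8.19, 6.9 and 6.99. With the normexp background correction the MyD88-null change was smaller, at 4.98 for Cxcl1 (adjusted p = 0.000422), 4.91 for Cxcl2 (adjusted p = 0.00528) and 2.52 for Cxcl5 (adjusted p = 0.655).

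In C57BL/6 cells the same 2 chemokines rose. Cxcl1 was higher by 4.9 log2 units with apoA-I (SE 0.703, interval 3.34 to 6.46), or 29.9-fold, with an adjusted p of 0.00901. Cxcl2 was higher by 5.83 (SE 0.908, interval 3.81 to 7.84), or 56.7-fold, with an adjusted p of 0.0153. Cxcl5 was higher by 1.25 (SE 1.34, interval -1.73 to 4.22, adjusted p = 1). Over all genes 132 rose, or 0.789%, and 6.28% had treated arrays all above the controls, Cxcl1 and Cxcl2 among them. Cxcl2 was 9 of 16732 by size of increase, Cxcl1 was 16 and Cxcl5 was 393.

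Within replicate numbers the C57BL/6 difference was 4.83, 5.29 and 4.57 for Cxcl1, 4.59, 7.05 and 5.83 for Cxcl2, and 1.05, 1.43 and 1.25 for Cxcl5. The 3 differences of Cxcl5 lay within 1.05 to 1.43, though its levels spread widely. Replicates 1 and 2 each lay on 1 slide, so these are also the values within slides 1 and 2, and within scan days 1 and 3 the difference was 5.06 and 4.57 for Cxcl1, 5.82 and 5.83 for Cxcl2, and 1.24 and 1.25 for Cxcl5. With the replicate block the calls for the 3 chemokines were the same, while 598 genes were called in place of 138. Without both samples of conflicting description the C57BL/6 changes were 4.72 for Cxcl1 (adjusted p = 0.0939) and 5.29 for Cxcl2 (adjusted p = 0.159), and both calls were lost. The Cxcl1 call was lost with slide as a fixed block (4.97, adjusted p = 0.0841), an alternative chosen after seeing the data. It was also lost without C57BL/6 control replicate 2 (adjusted p = 0.0595) or C57BL/6 apoA-I replicate 2 (0.0544), and that of Cxcl2 without either of these or without C57BL/6 apoA-I replicate 1 or control replicate 3, with adjusted p of 0.079 to 0.0893.

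**Figure D2:**
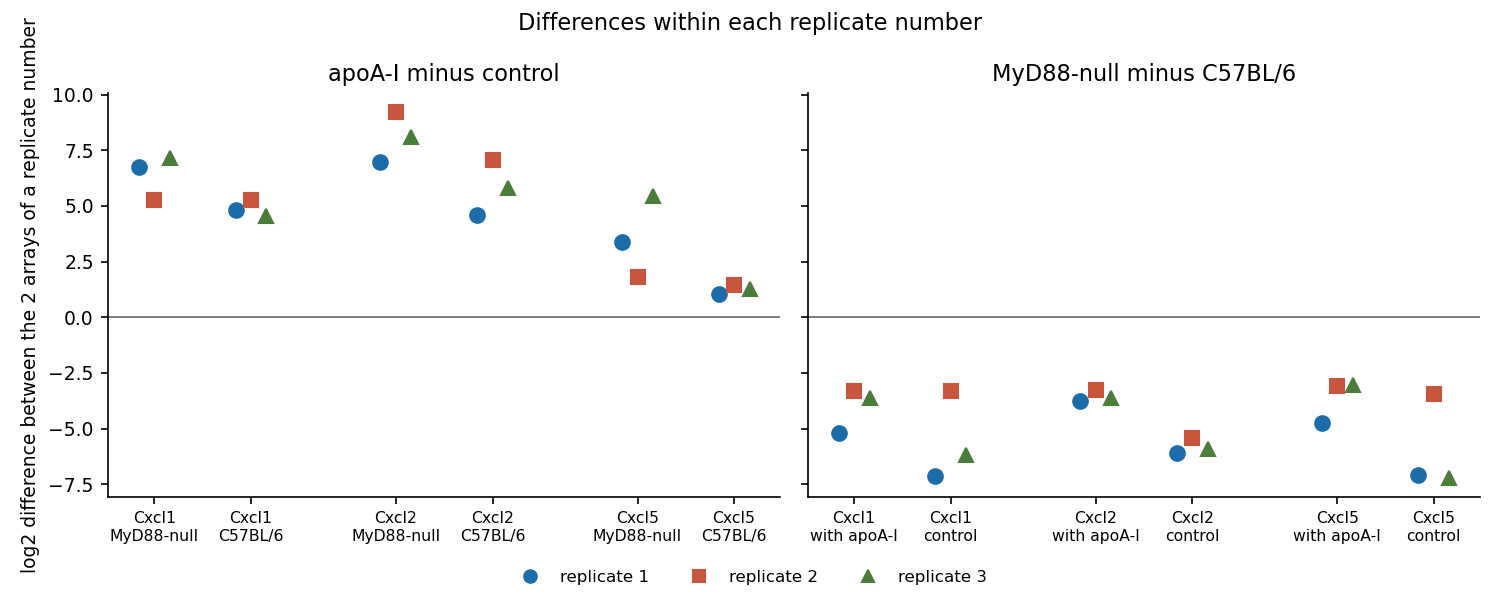
Log2 difference between the 2 arrays of each replicate number (vertical axis), with apoA-I minus control in the left panel and MyD88-null minus C57BL/6 in the right panel, for Cxcl1, Cxcl2 and Cxcl5; symbols mark the replicate number. All points lie above 0 in the left panel and below 0 in the right panel, and those of Cxcl5 in C57BL/6 cells lie between 1.05 and 1.43.

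Whether the response to apoA-I differed between genotypes was tested as an interaction, the MyD88-null response minus the C57BL/6 response. It was 1.51 log2 units for Cxcl1 (SE 0.994, interval -0.71 to 3.72), 2.28 for Cxcl2 (SE 1.28, interval -0.58 to 5.13) and 2.29 for Cxcl5 (SE 1.89, interval -1.91 to 6.5), each with an adjusted p of 1. The intervals of all 3 genes held 0. No gene passed this test by limma (0%), and 186 genes had an unadjusted p under 0.05. Within replicate numbers the interaction was 1.94, -0.01 and 2.59 for Cxcl1, 2.37, 2.18 and 2.28 for Cxcl2, and 2.33, 0.36 and 4.2 for Cxcl5. With the MyD88-null controls of Cxcl2 set at their bound its MyD88-null response was 6.76 and the interaction 0.93, so the size of this difference rests on levels below background. With the normexp background correction the interaction was 0.17 for Cxcl1, -0.63 for Cxcl2, the other direction, and 1.33 for Cxcl5.

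Between control cells, all 3 chemokines were lower in MyD88-null cells than in C57BL/6 cells, and Cxcl1 passed the test. Cxcl1 differed by -5.55 log2 units (SE 0.703, interval -7.11 to -3.98, adjusted p = 0.0187), which is 46.8-fold as measured with 1 of 3 MyD88-null control arrays below background. Cxcl2 differed by -5.82 as measured (SE 0.908, interval -7.83 to -3.8, adjusted p = 0.0584), which at its bound is at least 22.2-fold lower. Cxcl5 differed by -5.91 (SE 1.34, interval -8.89 to -2.94, adjusted p = 0.289), which is 60.3-fold as measured. Only 10 genes fell in MyD88-null controls, or 0.0598%, and 3.29% had MyD88-null control arrays that all lay below the C57BL/6 controls, the 3 chemokines among them. By size of decrease Cxcl5 was 2 of 16732, Cxcl2 was 3 and Cxcl1 was 4.

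The control differences within replicate numbers were -7.13, -3.32 and -6.2 for Cxcl1, -6.1, -5.44 and -5.9 for Cxcl2, and -7.07, -3.43 and -7.24 for Cxcl5. Replicate 2 gave the smallest difference for each gene. Within scan days 1 and 3 the difference was -6.67 and -6.2 for Cxcl1, -4.61 and -5.9 for Cxcl2, and -7.85 and -7.24 for Cxcl5. With the replicate block the tests of Cxcl2 (adjusted p = 0.00232) and Cxcl5 (adjusted p = 0.0142) also passed, and 100 genes were called in place of 13. The call for Cxcl1 was lost without both samples of conflicting description (-5.73, adjusted p = 0.171), with slide as a fixed block (-5.67, adjusted p = 0.371) and in 6 of 12 fits that left out 1 array, where its adjusted p ran up to 0.133. Those arrays were C57BL/6 control replicates 1, 2 and 3, C57BL/6 apoA-I replicate 2 and MyD88-null control replicates 1 and 3. With the normexp background correction the control difference was -4.2 for Cxcl1 (adjusted p = 0.0141), -2.88 for Cxcl2 (adjusted p = 0.466) and -4.56 for Cxcl5 (adjusted p = 0.237).

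With apoA-I present, the MyD88-null arrays were again below the C57BL/6 arrays for all 3 chemokines, and none passed the test. The difference was -4.04 for Cxcl1 (SE 0.703, interval -5.61 to -2.48, adjusted p = 0.185), which is 16.5-fold. It was -3.54 for Cxcl2 (SE 0.908, interval -5.56 to -1.52, adjusted p = 0.807) and -3.62 for Cxcl5 (SE 1.34, interval -6.6 to -0.64, adjusted p = 0.999), which are 11.6-fold and 12.3-fold. In this comparison 8 genes fell, or 0.0478%, and 2.43% had MyD88-null arrays that all lay below, the 3 chemokines among them. By size of decrease Cxcl1 was 5 of 16732, Cxcl5 was 11 and Cxcl2 was 12.

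Within replicate numbers these differences were -5.19, -3.33 and -3.61 for Cxcl1, -3.74, -3.26 and -3.62 for Cxcl2, and -4.74, -3.07 and -3.05 for Cxcl5. The differences of Cxcl2 were the closest together of the 3 genes. Among arrays scanned on day 1 the difference was -3.55 for Cxcl1, -3.53 for Cxcl2 and -2.1 for Cxcl5. With the replicate block the test of Cxcl2 passed (adjusted p = 0.0417), and 37 genes were called in place of 11. Cxcl1 passed with the normexp background correction (-4.03, adjusted p = 0.0151), with slide as a random block (-4.21, adjusted p = 0.0383) and without MyD88-null control replicate 2 (adjusted p = 0.00855). The comparisons of treatment and of genotype share arrays, so their values are given side by side and not as separate evidence.

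Cxcl1, Cxcl2 and Cxcl5 lie in a cluster of chemokine genes, in the RefSeq order Rassf6, Cxcl5, Ppbp, Pf4, Cxcl3, Cxcl15, Cxcl1, Cxcl2, Mthfd2l. Of the 4 other chemokines in the cluster Cxcl3 and Pf4 were tested, and Cxcl15 and Ppbp did not pass the filter. Cxcl3, a further Cxcr2 ligand, stood at -2.11, 1.26 and 0.49 in apoA-I-treated MyD88-null cells and at -6.81, -7.01 and -5.39 in MyD88-null controls, where replicate 3 was the only one well above background. In C57BL/6 cells it stood at 4.24, 4.01 and 3.43 with apoA-I and at 0.84, -2.88 and -2.78 in controls. Cxcl3 rose in MyD88-null cells (6.28, SE 1.07, adjusted p = 0.0186), and its change in C57BL/6 cells was 5.5 (SE 1.07, adjusted p = 0.0508). Between genotypes it differed by -4.02 with apoA-I (adjusted p = 0.873) and by -4.79 in controls (adjusted p = 0.289).

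Pf4, a platelet chemokine without the Glu-Leu-Arg motif that lies between Cxcl5 and Cxcl3, had signal well above background on each of the 12 arrays. Its change with apoA-I was 0.07 in MyD88-null cells (SE 0.262, adjusted p = 0.948) and -0.01 in C57BL/6 cells (SE 0.262, adjusted p = 1). Its difference between genotypes was 0.18 with apoA-I and 0.1 in controls (SE 0.262 each, adjusted p = 0.999 each). The plot of the cluster in chromosome order shows that the tested genes on both sides of Pf4 had larger values.

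**Figure D3:**
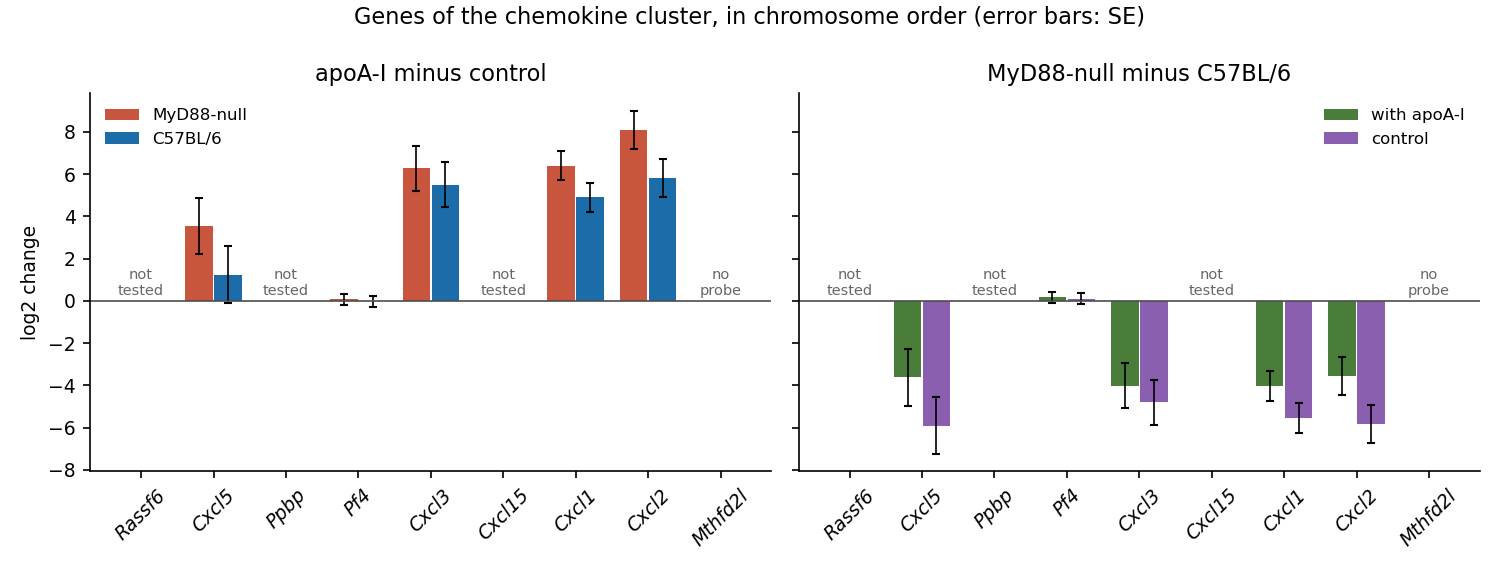
Log2 change (vertical axis, error bars SE) of the genes of the chemokine cluster in chromosome order (horizontal axis), with apoA-I minus control in the left panel and MyD88-null minus C57BL/6 in the right panel. Cxcl3, Cxcl1 and Cxcl2 reach 4.9 to 8.1 in the left panel and -5.82 to -3.54 in the right panel, and Pf4 lies between -0.01 and 0.18.

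Of 4 receptors listed with these ligands 3 were tested, and 1 rose in each genotype. That was Ccrl2, an atypical receptor known for binding chemerin, with changes of 2.99 in MyD88-null cells (SE 0.406, adjusted p = 0.0046) and 2.75 in C57BL/6 cells (SE 0.406, adjusted p = 0.011). Between genotypes Ccrl2 differed by -0.12 with apoA-I and -0.36 in controls (SE 0.406 each, adjusted p = 0.999 each). Cxcr2, the receptor of Cxcl1, Cxcl2 and Cxcl5, differed by 0.91 in MyD88-null cells (SE 0.629, adjusted p = 0.743) and 0.27 in C57BL/6 cells (SE 0.629, adjusted p = 1). It passed the filter only through the MyD88-null group with apoA-I, which favoured the direction in MyD88-null cells. In the other groups some arrays had Cxcr2 below background, so the size of both changes rests partly on such levels. Ackr1, a scavenging receptor, differed by 1.33 in MyD88-null cells and -1.07 in C57BL/6 cells without passing. The median change was 1.33 in MyD88-null cells and 0.27 in C57BL/6 cells, against medians of 0.019 and -0.023 over all genes tested. With 3 tested receptors these medians are the values of Ackr1 and Cxcr2. Of all genes tested, 1.08% rose in MyD88-null cells and 0.789% in C57BL/6 cells.

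Of 8 other CXC chemokines, 7 were tested, and 2 rose in MyD88-null cells and 1 in C57BL/6 cells, with medians of 0.7 and 0.29. Over all genes tested these shares were 1.08% and 0.789%. Cxcl10, an interferon-induced attractant of T cells, rose by 7.73 in MyD88-null cells (SE 0.646, adjusted p = 0.000234), whose controls had it above background on 2 of 3 arrays, and by 3.63 in C57BL/6 cells (SE 0.646, adjusted p = 0.0341). Cxcl11, a ligand of the same receptor, rose in MyD88-null cells (at least 2.44-fold, adjusted p = 0.000951) and was well above background on no C57BL/6 array. With apoA-I it was at least 2.02-fold higher in MyD88-null cells than in C57BL/6 cells (adjusted p = 0.0212). Cxcl11 passed the filter only through the MyD88-null group with apoA-I, so both directions were set by the filter. Cxcl9, Cxcl12, Cxcl13, Cxcl14 and Cxcl16 did not pass in either genotype.

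Of 9 cytokines that raise neutrophil output or induce Cxcl1 in other cells, 8 were tested and 7 rose in both genotypes: Csf3, Csf2, Il1a, Il1b, Tnf, Il6 and Il23a. Their list's median was 3.86 in MyD88-null cells and 6.01 in C57BL/6 cells, against the medians over all genes above. The share of all genes that rose was 1.08% in MyD88-null cells and 0.789% in C57BL/6 cells. Tnf, which was above background on all arrays, rose by 6.09 in MyD88-null cells (SE 0.611, adjusted p = 0.000625) and by 5.14 in C57BL/6 cells (SE 0.611, adjusted p = 0.00262). Il1b, whose product signals through MyD88, was not above background at every spot of its probe on any MyD88-null control array and rose at least 206-fold in MyD88-null cells (adjusted p = 1.33e-06) and by 8.73 log2 units in C57BL/6 cells (SE 0.329, adjusted p = 1.81e-06). Csf2, a growth factor of myeloid cells that no control had above background at every spot of its probe, rose at least 3.02-fold in MyD88-null cells (adjusted p = 0.00264) and at least 31.7-fold in C57BL/6 cells (adjusted p = 8.93e-05). Csf2 and Il23a passed the filter only through groups with apoA-I, so their direction was set by it. Il6 passed only through the C57BL/6 group with apoA-I, so for Il6 this holds in C57BL/6 cells only.

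Between genotypes with apoA-I, 5 of the 8 cytokines fell in MyD88-null cells, with differences of -3.52 for Csf2, -4.39 for Csf3, -3.62 for Il1a, -3.32 for Il1b and -5.32 for Il6. Their adjusted p ran from 0.000814 to 0.0212. Csf3 and Il6 were above background on 2 of 3 MyD88-null arrays with apoA-I. Il6 passed the filter only through the C57BL/6 group with apoA-I, and Csf3 only through the C57BL/6 groups. The filter thus favoured the direction of their genotype differences, that of Csf3 in controls included. In controls 2 fell, Csf3 (at least 4.81-fold, adjusted p = 0.00615) and Il1b (at least 4.85-fold, adjusted p = 0.00357), neither above background at every spot on any MyD88-null control array. Tnf differed by -3.12 with apoA-I (adjusted p = 0.274) and -4.07 in controls (adjusted p = 0.055). The list's median difference was -3.42 with apoA-I and -1.13 in controls, against 0.079 and 0.038 over all genes. Of all genes tested, 0.0478% fell with apoA-I and 0.0598% in controls. Cxcl1, Cxcl2 and Cxcl5, at -4.04, -3.54 and -3.62 with apoA-I, were near the list's median there, and at -5.55, -5.82 and -5.91 in controls they were below it. That control median includes Csf2, Il6 and Il23a, which no control array of either genotype had above background. The other tested cytokines differed in controls, as measured, by -3.91 for Csf3, -3.59 for Il1b, -4.07 for Tnf, -1 for Il1a and -0.66 for Il17f.

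**Figure D4:**
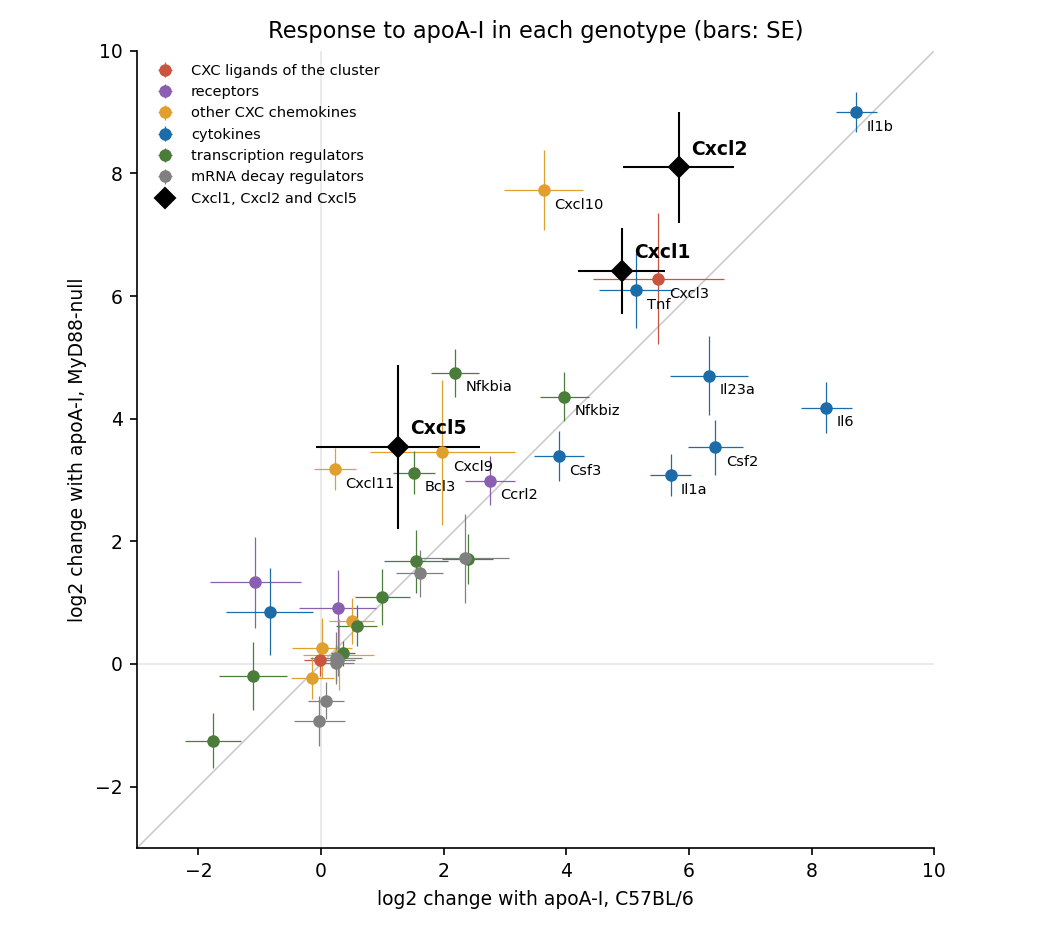
Log2 change with apoA-I in MyD88-null cells (vertical axis) against that in C57BL/6 cells (horizontal axis) for Cxcl1, Cxcl2 and Cxcl5 (black diamonds) and the genes of the 6 pathway lists (coloured points); bars are SE and the diagonal marks equal changes. The 3 chemokines lie above the diagonal, at 6.41 against 4.9 for Cxcl1, while Il6, Csf2 and Il1a lie below it, at 4.18 against 8.24 for Il6. No gene passed the test of a difference between the responses. Cxcl2 in MyD88-null controls, and Il6 and Csf2 in controls of both genotypes, were below background, so their positions are not exact.

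All 10 listed regulators of Cxcl1 and Cxcl2 transcription were tested, and 3 rose in each genotype. Their medians were 1.38 in MyD88-null cells and 1.26 in C57BL/6 cells, where 1.08% and 0.789% of all genes rose. Nfkbia, the inhibitor that NF-kappaB itself induces, rose by 4.75 in MyD88-null cells (SE 0.391, adjusted p = 0.000223) and by 2.19 in C57BL/6 cells (SE 0.391, adjusted p = 0.0341). Nfkbiz, a nuclear cofactor of NF-kappaB, rose by 4.36 in MyD88-null cells (SE 0.402, adjusted p = 0.000388) and by 3.97 in C57BL/6 cells (SE 0.402, adjusted p = 0.00116). It was also the 1 regulator of the 10 that fell without MyD88, with differences of -3.14 with apoA-I (adjusted p = 0.0212) and -3.52 in controls (adjusted p = 0.0107). Over all genes 0.0478% and 0.0598% fell in these comparisons. Bcl3, another nuclear cofactor, rose in MyD88-null cells (3.12, SE 0.344, adjusted p = 0.000989), and Rel, an NF-kappaB subunit, rose in C57BL/6 cells (2.39, SE 0.415, adjusted p = 0.0298), whose controls had it above background on 1 of 3 arrays. Rel passed the filter only through the C57BL/6 group with apoA-I, so its direction was set by the filter and its size rests on control levels mostly below background. The subunits Rela and Nfkb1 differed by 1.09 and 1.67 in MyD88-null cells and by 1.0 and 1.55 in C57BL/6 cells without passing.

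None of the 7 listed regulators of messenger RNA decay passed in either genotype, and their medians were 0.07 in MyD88-null cells and 0.25 in C57BL/6 cells. Zfp36, which shortens the life of AU-rich messengers, differed by 1.48 in MyD88-null cells (SE 0.384, adjusted p = 0.154) and by 1.61 in C57BL/6 cells (SE 0.384, adjusted p = 0.129). Zc3h12a, an RNase that cleaves inflammatory messengers, differed by 1.72 in MyD88-null cells (SE 0.723, adjusted p = 0.531) and by 2.34 in C57BL/6 cells (SE 0.723, adjusted p = 0.297).

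The genes whose levels ran most like those of each chemokine over the 12 arrays were ranked by Pearson correlation. The arrays share groups and replicate numbers, so the coefficients describe these arrays and carry no p. For Cxcl1 the 5 closest were Nfkbiz (r = 0.99), Ets2 (0.982), Ch25h (0.976), Tnf (0.974) and Sod2 (0.968). For Cxcl2 they were Tnf (r = 0.984), Mefv (0.982), Trib1 (0.975), Traf1 (0.97) and Ets2 (0.967), so that Tnf and Ets2 stood on both lists. Ch25h makes an oxysterol from cholesterol, Sod2 is the mitochondrial superoxide dismutase and Traf1 is an adaptor of Tnf receptors.

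Cxcl5 had other companions: Cdkn2b (r = 0.98), Jam2 (0.949), C3 (0.947), Serpinb2 (0.937) and Pdgfra (0.933), none of which stood on the other lists. None of these 5 passed with apoA-I in either genotype. Serpinb2 had the largest changes, 3.33 in MyD88-null cells (SE 0.971, adjusted p = 0.231) and 2.91 in C57BL/6 cells (SE 0.971, adjusted p = 0.362). The changes of the others ran from 0.14 to 0.9. Pdgfra, a receptor of fibroblasts and on the list of mesothelial and fibroblast markers, stood at -2.19, 0.37 and 0.04 in apoA-I-treated MyD88-null cells and at -2.4, -0.08 and -1.84 in MyD88-null controls. In C57BL/6 cells it stood at 0.04, 1.82 and 2.25 with apoA-I and at -0.14, 1.77 and 2.06 in controls. As for Cxcl5, replicate 1 was the lowest array of every group. Pdgfra is shown because of its correlation with Cxcl5 on these same arrays, so this likeness follows largely from that choice.

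All 11 mesothelial and fibroblast markers were tested and none passed in any comparison without the replicate block. With the block 1 of the 11, Pdgfra, was lower in MyD88-null controls (adjusted p = 0.0272). Their summed signal, in units of the 75th percentile, was 49, 141 and 67.6 in apoA-I-treated MyD88-null cells and 51.4, 166 and 37.2 in MyD88-null controls. It was 67.2, 193 and 151 in C57BL/6 cells with apoA-I and 52.4, 178 and 122 in C57BL/6 controls. The sum is weighted to its brightest probes, Dcn, Col1a2 and Col1a1. Replicate 2 was the highest array of all 4 groups for this sum and of 3 groups for Cxcl5, with replicate 3 the highest in C57BL/6 controls (3.25 against 3.21). Like Cxcl5, this sum and Pdgfra were lower in MyD88-null than in C57BL/6 cells in all 6 pairs of the same replicate number and treatment. Within those pairs Pdgfra differed by -2.23, -1.45 and -2.21 with apoA-I and by -2.26, -1.85 and -3.9 in controls. Pdgfra was picked for its likeness to Cxcl5, so its agreement in these pairs is not separate evidence. The B cell and mast cell sums were also lower in all 6 pairs. Of the other sums, that of macrophages was lower in 3 of 6 pairs. Those of T cells and eosinophils were lower in 2 each, and those of neutrophils and endothelial cells in 1 each. The mesothelial and fibroblast sums of control replicate 1 were close, at 51.4 in MyD88-null and 52.4 in C57BL/6 cells. The median genotype difference of the mesothelial and fibroblast list was only -0.1 with apoA-I and -0.03 in controls. Msln, Upk3b, Krt19, Krt8 and Krt18 were higher in MyD88-null cells in both comparisons, and the rest of the list was lower. The part of mesothelial cells and fibroblasts in the level of Cxcl5 was not tested.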

How the data were processed

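Groups and replicate numbers were taken from titles and source names. Per the file headers, deposited intensities are background-corrected Cy3 signals from Agilent Feature Extraction 9.5.1.1 or 9.5.3.1 (9.5 per the submitters' processing notes), not scaled between arrays. The authors' deposited value table followed log10 of those signals (r = 0.99257 to 0.99974 per array, which gave its scale and direction) and served as an alternative. Its centring is unknown, and its column medians for replicates 1 to 3 were 1.8333, 1.846 and 1.8225 in apoA-I-treated MyD88-null cells, 1.8386, 1.8676 and 1.8435 in MyD88-null controls, 1.8402, 1.841 and 1.8346 in C57BL/6 cells with apoA-I, and 1.8435, 1.8408 and 1.8283 in C57BL/6 controls.

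The log2 of each deposited intensity was taken relative to its array's 75th percentile. Outlier spots were left out, and spots of a probe were averaged, giving 41174 probes from 43379 spots that were not controls. A probe was kept if every array of 1 group or more had all its spots well above background and if it was present on at least 2 arrays of each, which left 24336, and the brightest kept probe stood for a gene. Names came from RefSeq (GRCm38.p6): 22951 probes matched by accession, 131 by another accession, 6582 by symbol and 3073 by synonym, and 8437 by the file's own name.

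limma 3.58.1 in R 4.3.3 fitted a mean for each of the 4 groups to all 12 arrays (8 residual and 2.13 prior degrees of freedom), with two-sided p-values adjusted by Benjamini-Hochberg over 16732 genes and a threshold of 0.05. The procedure was tested on simulated data drawn independently for each array. That simulation held no effect of replicate, slide or scan day, so it does not check the fit where arrays deviate together. The text names Cxcl1, Cxcl2 and Cxcl5, the 5 genes of highest correlation with each, and genes of the pathway lists. These genes, lists and tests were chosen with earlier results of these data known.

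The series' design text describes 3 replicate experiments of 4 samples. Arrays of the same number deviated together from their group means in all 18 pairs (r = 0.296 to 0.859, against -0.812 to 0.547 for 36 pairs of different numbers), so the numbers were taken to pair the samples and a fit with the replicate block was run. The arrays lay on 5 slides scanned on 3 days, with replicate 3 of every group and no other array on day 3. The correlations therefore cannot tell paired samples from arrays processed together. Deviations from a mean of 3 arrays also cancel out, which pushes pairs of different numbers towards negative r when those of the same number are positive. Other alternatives were normexp background correction (offset 50), quantile normalization, no filter, other rules for probes, slide or scan day as a block, other readings of the conflicting labels, and leaving out each array. The number of arrays limits the precision.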

Additional observations from a re-analysis of the deposited data

How the results depend on the processing

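Over 12 alternatives other than leaving out an array, 179 of 180 log2 differences of Cxcl1, Cxcl2 and Cxcl5 kept their direction. The exception was the interaction of Cxcl2, -0.63 with normexp background correction. The replicate block, the fit without the filter and the other rules for probes gave the same log2 differences as the main fit by construction. Those alternatives could not change a direction, so the count overstates how far the directions were tried. The causes of the changes below were not tested, and fits without some samples or with more genes differ by construction.

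The replicate block takes the numbers to pair the samples. With it the genes called were 653 in MyD88-null cells (527 higher, 126 lower) and 598 in C57BL/6 cells (388 higher, 210 lower). Between genotypes 37 were called with apoA-I and 100 in controls. The same block gave calls for Cxcl5 in MyD88-null cells (3.54, adjusted p = 0.042), for Cxcl2 between genotypes with apoA-I (-3.54, 0.0417) and for Cxcl2 (-5.82, 0.00232) and Cxcl5 (-5.91, 0.0142) between controls. It changed no other call of these 3 genes.

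Slide as a random block (correlation 0.596) called 659 genes in MyD88-null cells (507 higher, 152 lower), 797 in C57BL/6 cells (436 higher, 361 lower), 3 in the interaction, 46 between genotypes with apoA-I and 66 between controls. It also called Cxcl1 with apoA-I (-4.21, 0.0383) and Cxcl2 in controls (-5.66, 0.00376) between genotypes. Scan day as a block called 338 in MyD88-null and 329 in C57BL/6 cells, 18 with apoA-I and 21 in controls. Slide as a fixed block, chosen after seeing the data, ended the Cxcl1 calls in C57BL/6 cells (4.97, 0.0841) and between controls (-5.67, 0.371), with 5 genes called with apoA-I and 2 in controls.

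Normexp called Cxcl1 between genotypes with apoA-I (-4.03, 0.0151). Cxcl2 passed between controls with quantile normalization (-5.63, 0.0402, 21 genes called) and in the authors' table (-5.29, 0.0474, 23 genes). Without the filter 81 genes were called in C57BL/6 cells.

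Without both samples of conflicting description the calls ended for Cxcl1 (4.72) and Cxcl2 (5.29) in C57BL/6 cells and for Cxcl1 between controls (-5.73), with 88 genes called in MyD88-null cells, 53 in C57BL/6 cells, 6 with apoA-I and 5 in controls. With treatments read from the descriptions Cxcl1 and Cxcl2 were at 4.25 and 5.75 in MyD88-null cells and 3.4 and 3.57 in C57BL/6 cells, and Cxcl1 at -3.94 between controls, none called. limma then called 0 genes in either response (742 in MyD88-null and 284 in C57BL/6 cells at an unadjusted p under 0.05), 1 with apoA-I and 2 in controls.

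Leaving out each array in turn, the MyD88-null response was 5.89 to 7.34 for Cxcl1, 7.63 to 8.92 for Cxcl2 and 2.44 to 5.03 for Cxcl5, with 108 to 173 genes called. The C57BL/6 response was 4.66 to 5.17, 5.29 to 6.79 and 0.72 to 1.87, with 61 to 145 genes. The interaction was 0.99 to 2.44, 1.31 to 3.1 and 1.19 to 3.79. With apoA-I the genotypes differed by -4.41 to -3.71 for Cxcl1, -3.97 to -3.07 for Cxcl2 and -4.25 to -2.43 for Cxcl5, with 8 to 12 genes, and in controls by -6.48 to -5.03, -6.63 to -4.85 and -7.41 to -4.81, with 6 to 15 genes.

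With 3 arrays a group the design leaves wide intervals. Cxcl2 was not measured above background in MyD88-null controls, so its differences there are bounds at the floor used and not strict limits.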
